A study of Mus musculus with 2 samples.

Results

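Kinesins are motor proteins that use ATP to move along microtubules or to take them apart at their ends. One set of them builds the meiotic or mitotic spindle, aligns chromosomes and completes cytokinesis, and in an oocyte these motors work on the acentrosomal meiotic spindle. Another set carries organelles and vesicles, mitochondria among them, and further members act in cilia and centrioles.

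The kinesin genes were taken as all gene probes of the array whose gene name begins with Kif followed by a digit, which gave 40 of 37074 gene names and 98 of 56600 probes. Of the 40 names, 37 are kinesin motor genes, and the other 3 are Kif1bp, which encodes a kinesin-binding protein, the antisense transcript Kif16bos and the pseudogene Kif4-ps. The motor genes were divided by role into 13 spindle kinesins, 13 transport kinesins, 6 cilium and centriole kinesins and 5 others.

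Unfertilised oocytes came from Mul1 -/- and from Mul1 +/+ mice, both on the C57BL/6 strain. The Mul1 protein is a ubiquitin ligase anchored in the outer membrane of mitochondria. A pool of 123 knockout oocytes and a pool of 213 wild-type oocytes each gave the amplified, Cy3-labelled RNA for 1 single-colour Agilent array. The age of the mice, the hormone treatment and the deleted part of Mul1 are not given in the sources used here.

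Each genotype has 1 array, so no difference has a replicate check, no test was made, and precision is limited by the number of arrays. A difference is the knockout value minus the wild-type value in log2 units, each array's 75th percentile having been subtracted first. A gene's difference averages those of its probes called well above background by the scanner software for knockout and wild type alike, and such genes are called measured. Signals are printed before the percentile was subtracted. Genes at least 1.5-fold apart (0.585 on the log2 scale) and at least 2-fold apart were counted. The error given with a difference comes from the scanner software's error of each spot and describes spot measurement only, not the spread between oocyte pools.

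At the probe of its RefSeq transcript NM_026689, Mul1 had a signal of 1074 on the knockout array, against 3353 on the wild-type array, and its other probe read 23.1 and 19.3. Probes well above background made up 64.5% of the knockout array and 66.0% of the wild-type array, and no spot was saturated. All 12 myeloid markers were higher on the knockout array, with a summed signal of 36780 against 11510 on the wild-type array, and all 5 red cell markers were lower, at 19220 against 59850. Oocyte markers summed to 76600 on the knockout and 81850 on the wild-type array, with 11 of 12 measured and Figla well above background in wild type only. Gdf9 made up most of both sums, and without it they were 15080 in knockout and 13720 in wild type. The oocyte markers had a median difference of 0.19, with 7 of 11 above 0 and Ooep at 0.94 and Nlrp5 at 0.77 at least 1.5-fold higher. All 12 cumulus and granulosa markers were measured, at 172600 on the knockout array and 167200 on the wild-type array, but 5 of them were at least 1.5-fold apart. Has2 at 1.16, Ptx3 at 0.95 and Cyp19a1 at 0.63 were higher in knockout, and Star at -0.96 and Amh at -0.81 lower. The part of other cells in the kinesin values was not tested. Actb differed by 0.0035 and the Gapdh probes by -0.05 to 0.12. In such pooled RNA, fewer cells of a type and less RNA per cell cannot be told apart.

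The promoters of several spindle kinesins are shown because they share letters with other mitotic genes, the CHR element (TTTGAA or TTCGAA), through which the MuvB-containing complexes are known to time expression to late cell cycle, and the CCAAT box, bound by NF-Y. The lines give 90 bases before and 30 bases after the RefSeq gene start of build GRCm38.p6, read along the gene, with CHR and CCAAT letters in capitals, on either strand. The first 5 genes encode spindle kinesins and have CHR letters in this window, and the last 2 encode transport kinesins and have none.
Kif11: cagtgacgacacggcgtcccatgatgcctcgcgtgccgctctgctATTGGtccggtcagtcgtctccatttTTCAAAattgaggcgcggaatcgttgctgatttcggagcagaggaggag
Kif18b: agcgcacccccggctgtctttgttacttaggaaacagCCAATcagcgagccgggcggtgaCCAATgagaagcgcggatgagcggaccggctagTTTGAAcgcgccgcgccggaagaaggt
Kif15: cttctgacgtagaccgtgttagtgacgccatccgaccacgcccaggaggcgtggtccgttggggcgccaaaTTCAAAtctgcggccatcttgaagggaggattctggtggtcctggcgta
Kif4: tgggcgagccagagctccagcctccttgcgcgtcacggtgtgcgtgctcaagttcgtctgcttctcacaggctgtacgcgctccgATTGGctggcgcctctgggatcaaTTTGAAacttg
Kif22: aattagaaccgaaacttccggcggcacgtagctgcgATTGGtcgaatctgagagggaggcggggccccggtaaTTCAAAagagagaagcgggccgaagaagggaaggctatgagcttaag
Kif3b: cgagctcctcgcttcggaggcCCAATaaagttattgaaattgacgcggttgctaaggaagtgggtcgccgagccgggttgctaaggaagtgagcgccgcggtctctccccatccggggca
Kif5c: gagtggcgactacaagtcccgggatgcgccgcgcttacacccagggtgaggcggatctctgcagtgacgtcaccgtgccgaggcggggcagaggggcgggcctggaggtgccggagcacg
These windows lie at chr19:37376292-37376411 on the plus strand (Kif11), chr11:102925095-102925214 on the minus strand (Kif18b), chr9:122950991-122951110 on the plus strand (Kif15), chrX:100625975-100626094 on the plus strand (Kif4) and chr7:127042391-127042510 on the minus strand (Kif22). The transport kinesin windows are chr2:153291326-153291445 (Kif3b) and chr2:49619196-49619315 (Kif5c), both on the plus strand.

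Of the 37 motor genes, 31 had an entry in the promoter table. Over the full window of 300 bases, both strands searched, CHR letters stood in 9 of 12 spindle kinesins, in 1 of 10 transport kinesins and in 21.7% of 27025 genes. The spindle kinesins with a match were Kif11, Kif14, Kif15, Kif18b, Kif20b, Kif22, Kif23, Kif2c and Kif4. The transport kinesin with a match was Kif1a, and Kif24 and Kif27 of 5 cilium and centriole kinesins and Kif26b of 4 others had one too. CCAAT letters were found in 7 of the 12 spindle kinesins, in 3 of the 10 transport kinesins, in 3 cilium and centriole kinesins, in 1 other and in 41.1% of all genes. Both elements together occurred in 6 spindle kinesins, in 0 transport kinesins, in 2 of 5 cilium and centriole kinesins, in 1 of 4 others and in 8.61% of all genes. A match is a description of the letters and not a binding site. Among all measured genes in the table, the 870 with both elements had a median difference of 0.07 between the arrays, against 0.04 over all 12763.

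Most kinesin genes differed by less than 1.5-fold between the arrays. Of the 37 motor genes, 36 were well above background on both, and Kif2b was on neither. Their median difference was 0.12, with 26 above 0 and 10 below, against a median of 0.03 and 54.8% above 0 over 22921 genes. Kif1a, Kif12 and Kif11 were at least 1.5-fold higher on the knockout array, where 7.84% of all genes were, and Kif13b was at least 1.5-fold lower, where 5.19% were. Kif1a alone was at least 2-fold higher (2.92% of all genes) and 0 kinesins were at least 2-fold lower (1.37%). The shares of the kinesins at these fold sizes are close to the background, while 72.2% of them lay above 0 against 54.8% of all genes. Of the 36 measured motor genes, 22 differed by more than their scanner error and 12 by more than 2 times that error. Over all measured genes 49.5% and 23.6% did.

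**Figure D1:**
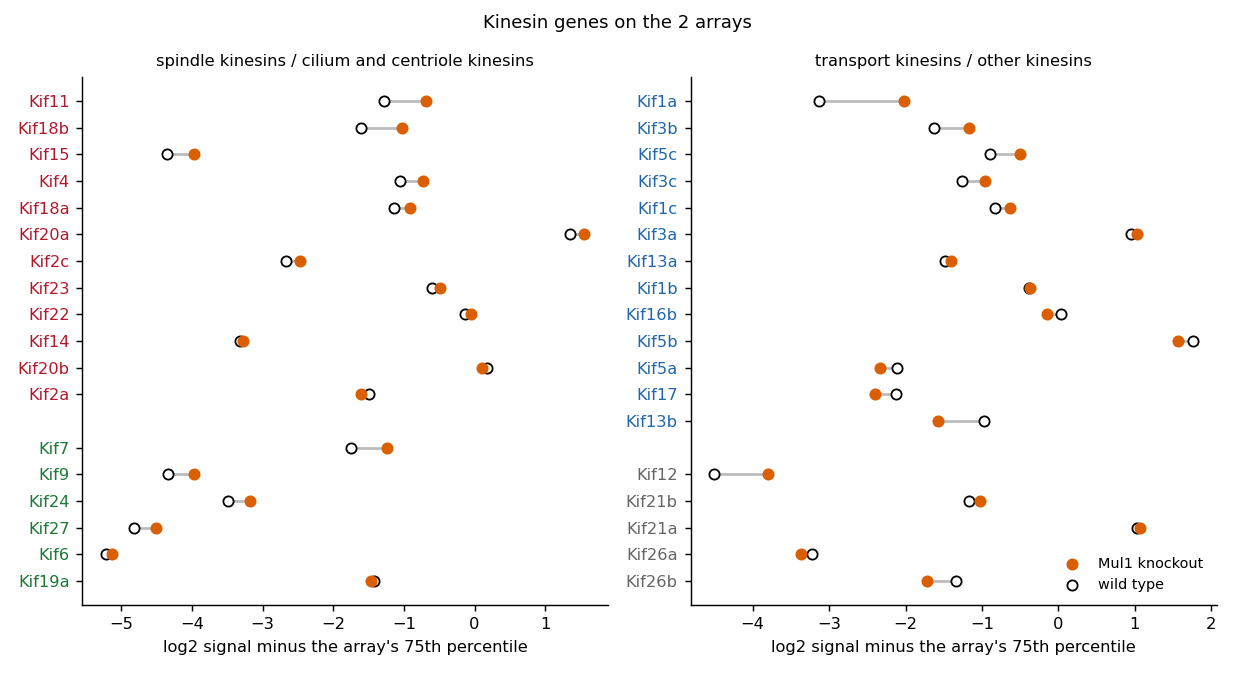
Each row is a kinesin gene, and the x axis is the log2 signal minus the array's 75th percentile, averaged over the probes well above background on both arrays. Filled points are the Mul1 knockout array and open points the wild-type array, 1 array each. Values are to be compared within a row, since probes differ in brightness. Kif1a has the widest gap, and most spindle kinesins have the knockout point slightly to the right.

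Spindle kinesins lay mostly above 0. Their median difference was 0.20, with 10 of 12 measured members above 0, 1 at least 1.5-fold higher and 0 lower by that size. Transport kinesins had a median of 0.07, with 8 of 13 above 0, 1 at least 1.5-fold higher and 1 lower. The spindle median was thus 0.12 above the transport median. The single values overlapped widely, from -0.13 to 0.60 in spindle kinesins and from -0.60 to 1.11 in transport kinesins. By more than the scanner error, 6 spindle kinesins were higher and 0 lower, while 5 transport kinesins were higher and 5 lower. Over all measured genes 27.1% were higher and 22.3% lower by more than that error. The error takes no account of disagreement between probes. Kif13b, Kif16b and Kif17 among these lower transport kinesins had probes on both sides of 0. So had Kif15 and Kif2c among the higher spindle kinesins. Set against the median of all genes in the same of 5 signal tiers, 9 of 12 spindle kinesins and 8 of 13 transport kinesins lay above it.

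The motor that pushes spindle poles apart, Kif11 (Eg5), had a signal of 492 on the knockout array, against 332 on the wild-type array, at its single probe on chr19:37495755-37495814 of build mm9. It was 1.52-fold higher, a difference of 0.60 with a scanner error of 0.20. Kif18b, a kinesin-8 acting at microtubule plus ends, read 387 in knockout and 265 in wild type, 1.49-fold higher and just short of the 1.5-fold size. Kif15, which helps Kif11 keep the spindle bipolar, had a mean difference of 0.39. Its 3 measured probes read 168, 45.3 and 16.8 in knockout, against 118, 25.5 and 20.4 in wild type, so one lay on the other side of 0. A further Kif15 probe, well above background in wild type only at 21.8, was at least 1.350-fold lower in knockout, and without the filter on dim probes Kif15 averaged 0.094. Kif11 and Kif18b, each with 1 probe, carry the upper end of the group without a second probe to set beside them.

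Other spindle kinesins move or align chromosomes, and their differences overlapped those of the cytokinesis motors. The chromokinesin Kif4 had signals of 476 in knockout and 387 in wild type, a difference of 0.33, and Kif18a, which aligns chromosomes at the metaphase plate, had 419 and 367, a difference of 0.22. Kif22, the chromokinesin Kid, averaged 0.09 over a bright probe at 6430 in knockout and 5089 in wild type and a dim probe at 90.8 and 106. Kif2c (MCAK), which depolymerises microtubules at centromeres, averaged 0.19 and was likewise divided, with 355 in knockout against 246 in wild type at one probe and 57.0 against 65.9 at the other. For both genes the brighter probe was higher in knockout and the dimmer one lower.

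Several motors act in cytokinesis. Kif20a (MKLP2), which brings the chromosomal passenger complex to the central spindle, had a signal of 2322 in knockout and 2070 in wild type, a difference of 0.20 that did not exceed its scanner error. Kif23 (MKLP1), a subunit of centralspindlin, differed by 0.10, Kif14 by 0.04 and Kif20b by -0.07. Kif20b probes read 1717 and 418.5 in knockout, against 1745 and 474 in wild type. Kif14 probes ran from -0.29 to 0.46, with 621, 56.0, 42.0 and 30.1 in knockout, against 461, 70.2, 47.5 and 27.8 in wild type. Lowest of the group was Kif2a, a kinesin-13 of spindle poles and of neurons, at -0.13, with probes at 1456 and 45.7 in knockout, against 1636 and 50.6 in wild type. None of Kif23, Kif14, Kif20b and Kif2a differed by more than the scanner error.

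**Figure D2:**
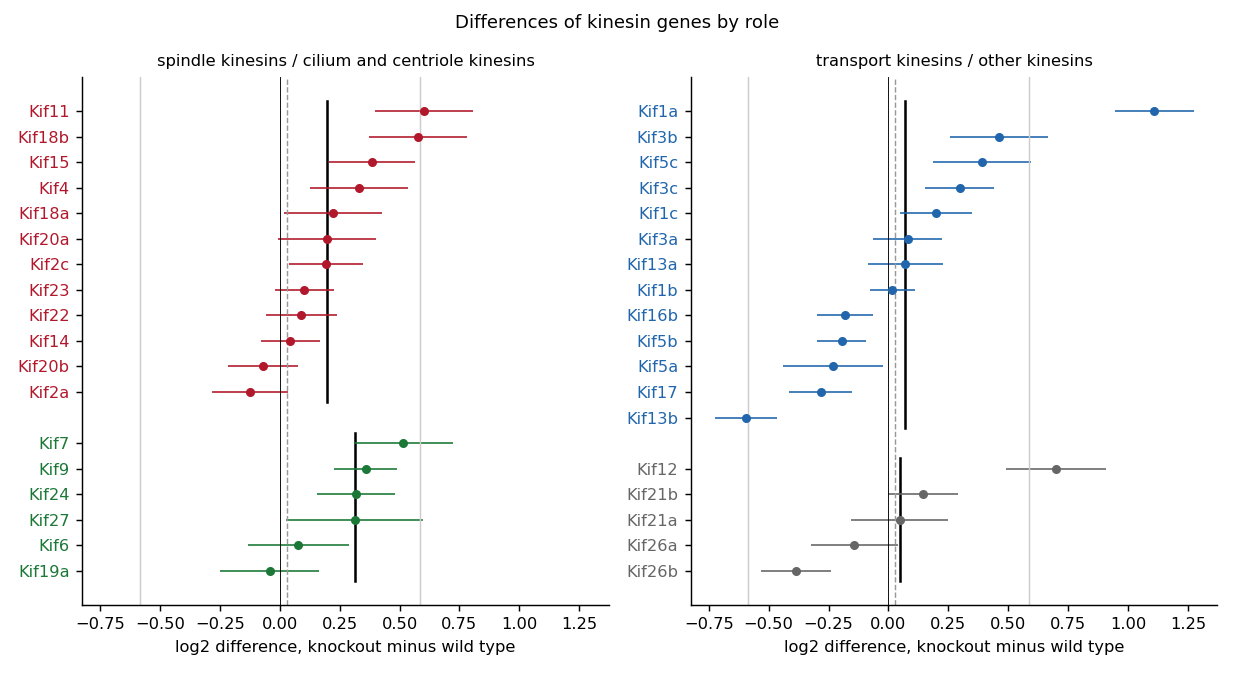
Each point is a kinesin gene, and the x axis is the log2 difference, knockout minus wild type, with a bar for the scanner error. Black vertical bars mark the median of each role group, the dashed line the median of all genes (0.03), and grey lines a 1.5-fold difference either way. Spindle kinesins run from -0.13 to 0.60 and transport kinesins from -0.60 to 1.11, with wide overlap.

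Among the kinesin-3 transport motors, Kif1a, which carries synaptic vesicle precursors in neurons, differed by 1.11, or 2.16-fold. One of its probes was printed at 10 spots per array. Its signals there ran from 626 over a median of 688 to 748 in knockout, against 237, 283 and 304 in wild type, so the spots of the arrays did not overlap. The mean difference at this probe was 1.36, and the other Kif1a probe, at 54.7 in knockout and 30.8 in wild type, gave 0.86. Both probes are of transcript NM_001294149 and both lay on the same side, but the spots are repeats of 1 labelled sample and say nothing of the spread between pools.

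Kif13b, a kinesin-3 motor of vesicle and membrane protein transport, lay at the other end with -0.60. Its value came mainly from a single probe, at 39.5 in knockout and 115 in wild type (-1.51), while the others read 67.2 and 68.0 (0.01) and 7015 and 8776 (-0.29). Kif16b, which moves early endosomes, averaged -0.18 over probes at 1361 in knockout and 1304 in wild type, at 792 and 769, and at 333 and 559, the last of them for the predicted transcript XM_006498813. Kif1b, a motor of mitochondria and synaptic vesicle precursors, differed by 0.02. Its 5 probes read 5321, 1176, 548, 523 and 47.7 in knockout, against 5411, 890.2, 600.3, 676 and 46.2 in wild type, from -0.34 to 0.43. Kif1c at 0.20 and Kif13a at 0.07 had all their probes above 0.

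The kinesin-1 heavy chains, which carry mitochondria through the Trak and Miro adaptors, differed in direction. Kif5b, the widely expressed chain, was lower at all 4 measured probes, from -0.27 to -0.14 with a mean of -0.20, and one of them read 11287 in knockout and 13890 in wild type. Kif5c, a chain known from neurons, was higher at 0.39, with 556 in knockout and 434 in wild type. Kif5a, another neuronal chain, was lower at -0.23. At its probe printed repeatedly, 8 unflagged knockout spots ran from 149 over a median of 155 to 165, and 10 wild-type spots from 161 over 188 to 199.7, so their ranges overlapped. Of the adaptors, Trak2 differed by 0.31, Rhot2 by 0.14, Trak1 by -0.09 and Rhot1 by -0.21.

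The kinesin-2 motors of intraflagellar and vesicle transport were on the upper side except for Kif17. Kif3b differed by 0.46, with 352 in knockout and 262 in wild type, Kif3c by 0.30 and Kif3a by 0.08, and their shared accessory subunit Kifap3 by 0.05. One further Kif3c probe was well above background in knockout only, at 21.4, and was at least 1.70-fold higher there. Kif17, known for carrying NMDA receptor cargo in dendrites, averaged -0.28, but its probes read 41.0 in knockout against 94.9 in wild type (-1.18), 60.4 against 52.7 (0.23) and 1337 against 1274 (0.10). Kif17 is also a neighbour of Mul1 on chromosome 4, with 4 protein-coding genes between them in RefSeq and 136.4 kb between the nearest probes on mm9. Of those genes Ddost differed by 0.25, Pink1 by 0.22 and Cda by -0.03, and Fam43b was not measured. Beyond Kif17, Sh2d5 differed by -0.37 and Hp1bp3 by -0.40, and on the other side of Mul1, Camk2n1 differed by 0.22 and Vwa5b1 by 0.38. Flanking sequence carried along with the targeted allele was not tested.

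The probes of Kif13b and Kif17 are shown because the values of these genes divide between probes. Those of Kif1a are shown because it had the largest difference, with both probes on the same side of 0. The lines give the first 30 of 60 bases, 5′ to 3′ as deposited, with the position of the whole probe on mm9. Whether each lies in coding or untranslated sequence was not determined here.
Kif1a, chr1:94912112-94912171 (1.36): tgtgtcataaccacctgacgtaatgactag
Kif1a, chr1:94915553-94915612 (0.86): aggcatcctgctgcaggccaacagtgacaa
Kif13b, chr14:65422700-65422759 (-1.51): ctagcttatctaaactctcagaatccatca
Kif13b, chr14:65425074-65425133 (0.01): ctggccaagggagacaggagttacaagaat
Kif13b, chr14:65428381-65428440 (-0.29): gtaattttgtaccatacatacctttccatc
Kif17, chr4:137842918-137842977 (-1.18): agcaggcacgtttacttgtgtggaatttcg
Kif17, chr4:137849815-137849874 (0.23): gagctgggatgaggataatggcttctggaa
Kif17, chr4:137857823-137857882 (0.10): gctggacagcagtccagagaaggtgattta
The lowest Kif13b probe was designed on the cDNA clone AK031370 and the lowest Kif17 probe on the Ensembl transcript ENSMUST00000105820, and the remaining Kif17 probes on NM_010623.

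Cilium and centriole kinesins had a median of 0.32, with 5 of 6 above 0 and 0 at least 1.5-fold apart. Kif7, the ciliary tip regulator of Hedgehog signalling, had a signal of 335 in knockout and 240 in wild type, a difference of 0.52. Kif9, a motor of motile cilia, averaged 0.36, with 3 of 4 probes above 0 and signals of 72.7, 70.01, 36.2 and 34.5 in knockout, against 50.1, 55.2, 22.05 and 42.1 in wild type. Kif24, a centriolar kinesin that restrains cilium formation, averaged 0.32 over probes on opposite sides of 0, at 61.1 in knockout and 36.5 in wild type (0.77) and at 125 and 141 (-0.14). Kif27, a relative of Kif7, differed by 0.31 at signals of 34.6 and 28.5. Its other probe, well above background in knockout only, read 24.6 in knockout and 13.2 in wild type, 1.91-fold higher as measured. Kif6 differed by 0.08, with 19.6, 19.4 and 29.4 in knockout, against 15.9, 18.4 and 34.8 in wild type. Kif19a, which trims motile cilia, read 285 in knockout and 300.4 in wild type, a difference of -0.04.

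Some of these signals were close to the lowest signal well above background, 15.8 in knockout and 12.9 in wild type, and Kif6 averaged 22.4 and 21.7. In the dimmest of 5 tiers of all genes the median difference was 0.11 and 16.5% were at least 1.5-fold higher, and Kif6, Kif9, Kif27, Kif12 and Kif15 were in that tier. Of the oviduct and ciliated epithelium markers, 8 of 11 were above 0, where 54.8% of all measured genes were. Their median was 0.19 and their summed signal 119900 in knockout against 77530 in wild type. The gap between the sums came from Ovgp1, the oviduct glycoprotein gene, at 69104 in knockout and 24266 in wild type (1.54), and without it they were 50830 and 53270. Epcam at 1.09, Pax8 at 0.76, Tekt1 at 0.65 and Foxj1 at 0.59 were also at least 1.5-fold higher. In knockout these read 83.9, 52.3, 124 and 185, against 40.2, 31.6, 81.0 and 125 in wild type. Krt8, at 25666 in knockout and 25222 in wild type, differed by 0.06, Dnaic1 by -0.05, Dnah5 by -0.11 and Krt18 by -0.14. The part of oviduct and ciliated epithelium in the kinesin values was not tested.

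Of the remaining kinesins, Kif12 was 1.62-fold higher, with 123 in knockout against 64.9 in wild type at one probe and 26.1 against 19.6 at the other. Kif21b and Kif21a, which regulate microtubule growth, differed by 0.14 and 0.05. Kif21b probes read 856 and 174 in knockout, against 699 and 183 in wild type, and the Kif21a probe 1655 and 1639. The atypical kinesins Kif26a and Kif26b differed by -0.14 and -0.39, and Kif26b was lower at both measured probes, at 347 in knockout against 439 in wild type and at 165 against 233. Another Kif26b probe, at 15.2 in knockout and 14.8 in wild type, was well above background in wild type only and allowed no fold. The Kif26a probes read 208 and 28.2 in knockout, against 212 and 35.4 in wild type. The kinesin-binding protein gene Kif1bp differed by 0.16, and Kif16bos and Kif4-ps were not well above background on either array.

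Of 25 names with several measured probes, 11 had probes at least 0.5 apart on opposite sides of 0. This is a larger share than the 17% of all genes with several measured probes. The genes were not matched for their number of probes. The 11 names were Kif13b, Kif17, Kif15, Kif9, Kif24, Kif16b, Kif1b, Kif14, Kif2c, Kif22 and Kif6. In 9 names all probes lay on one side, among them Kif1a, Kif12, Kif26b and Kif5b. The share of all genes with every probe on one side was not counted, so this count has no background. Counted by probe, spindle kinesins had 14 of 23 above 0 with a median of 0.15 and transport kinesins 20 of 31 with a median of 0.08, where all probes had a median of 0.02 and 53.3% above 0. The order of the medians was kept by probe, but the order of the shares above 0 was not.

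**Figure D3:**
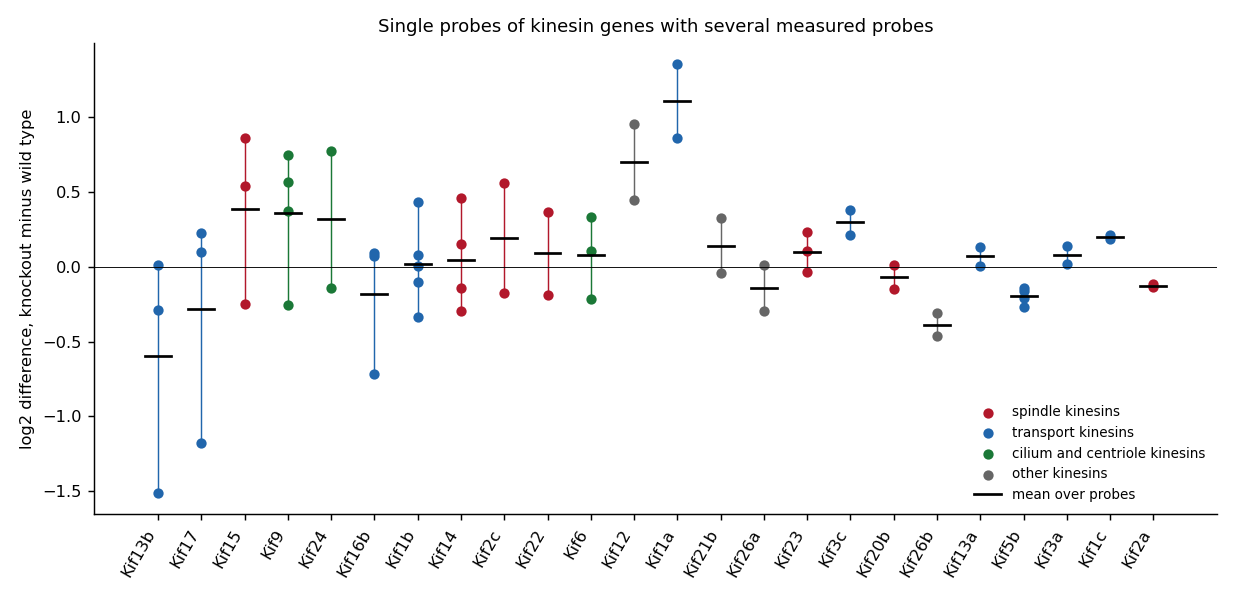
Each point is a probe well above background on both arrays, for the kinesin motor genes with more than 1 such probe, ordered by the distance between their extreme probes. The y axis is the log2 difference, knockout minus wild type, and the black bar the mean over probes. Kif13b and Kif17 owe their low means to single probes at -1.51 and -1.18, while the Kif1a probes lie at 0.86 and 1.36.

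Genes that work with kinesins were also compared. Beside them, all measured genes had a median of 0.03, with 54.8% above 0 and 7.84% at least 1.5-fold higher. Spindle partners had a median of 0.18, with 19 of 24 above 0 and Aurkb, the kinase of the chromosomal passenger complex, at least 1.5-fold higher at 0.83, with signals of 503 in knockout and 289 in wild type. Nusap1 at 0.50 and Tpx2 at 0.39 followed, and Numa1 at -0.14, Kntc1 at -0.16 and Clasp1 at -0.18 were lowest. The Kif23 partner Racgap1 differed by 0.21 and the Kif4 partner Prc1 by 0.07. Markers of proliferating cells, some of which oocytes also express, were all above 0, with 10 of 10, a median of 0.27 and 0 at least 1.5-fold apart. Mki67 read 5225 in knockout and 4195 in wild type. Whether the spindle kinesin values came from oocytes or from dividing somatic cells was not tested.

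Cytoplasmic dynein and dynactin, the minus-end motor and its activator, had a median of 0.11, with 18 of 26 above 0 and 0 at least 1.5-fold apart, between Dync2h1 at -0.29 and Actr1a at 0.31. The C-terminal kinesins, kinesin light chains and adaptors had a median of 0.05, with 12 of 21 above 0 and 0 at least 1.5-fold apart. Over all measured genes the median was 0.03 and 54.8% were above 0. Kidins220 was lowest at -0.51 and Fez1 highest at 0.52, while the kinetochore motor Cenpe differed by 0.16 and the minus-end spindle motor Kifc1 by -0.12 over probes at -0.60 and 0.36. Tubulins had a median of 0.05 over 18 measured genes, with Tuba1a at 0.59 and Tubb6 at -0.65 each at least 1.5-fold apart.

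The spindle median was above the transport median under the 13 other settings tried, by 0.044 without a filter on dim probes and up to 0.26 with the brightest probe of each gene. All settings reuse the same arrays, so they are no replicate check. Scaling on the median of detected probes or on spike-in controls shifts every difference alike and cannot change this distance. Scaling on spike-in controls added 0.13 to every difference and put the median of all genes at 0.16, the spindle median at 0.33 and the transport median at 0.20. Apart from that uniform shift, 9 motor genes changed sign under at least 1 setting, namely Kif14, Kif16b, Kif17, Kif20b, Kif24, Kif26a, Kif26b, Kif5a and Kif6.

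**Figure D4:**
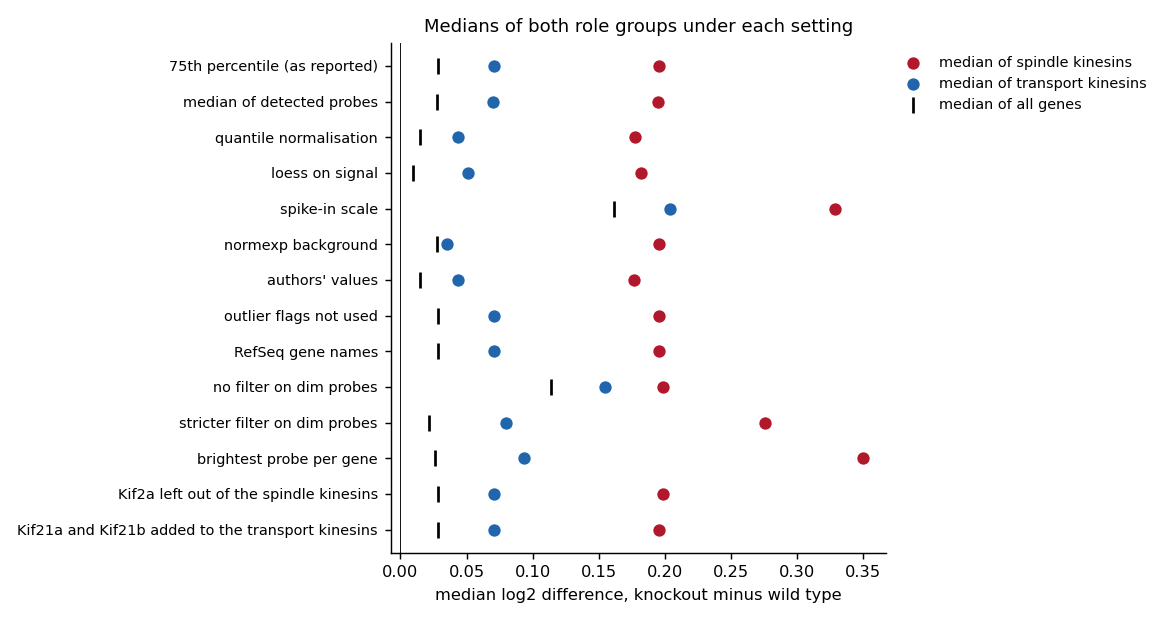
The x axis is the median log2 difference, knockout minus wild type, and each row a setting of the processing. Red points are the spindle kinesins, blue points the transport kinesins and black ticks all genes. The spindle median is right of the transport median in every row, by 0.044 to 0.26. All rows use the same arrays and are not replicates.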

How the data were processed

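Each array's scanner table holds spot intensity on a linear scale, written by Agilent Feature Extraction 10.7.1.1 per the file headers (9.5.1.1 per the submitters' processing notes), with background subtracted and signals detrended within the array. Probe positions are on mm9, per the file headers. The deposited series-wide intensity table has sorted columns equal within 0.0243%, so it was quantile normalised, and it served as an alternative.

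The log2 of the processed signal was averaged over unflagged spots (84 outlier spots left out on the knockout and 88 on the wild-type array), and each array's 75th percentile (790 and 808) was subtracted. Gene names are those of the files. Every measured kinesin is named, with probe values for those at least 1.5-fold apart, the 3 highest and 3 lowest of each role group and those with divided probes, and up to 3 genes on either side of each further list. Calculations used Python 3.11.15, statsmodels 0.14.6 and limma 3.58.1. The 75th percentile, median, quantile and loess scalings were tested on simulated differences of at least 2-fold. The other settings and smaller differences were not simulated. Members, lists and roles were chosen with earlier results of these data known. Promoters are from RefSeq.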

Additional observations from a re-analysis of the deposited data

How the results depend on the processing

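The median of all kinesin motor genes, 0.12, was 0.26 on the spike-in scale (8 probes), 0.19 without a filter on dim probes and 0.22 with the brightest probe. The spindle median, 0.20, was 0.33 on the spike-in scale, 0.28 with a stricter filter on dim probes (4 times the lowest signal well above background) and 0.35 with the brightest probe. The transport median, 0.07, was 0.20 on the spike-in scale and 0.15 without a filter. Their distance, 0.12, was 0.044 without a filter, 0.20 with the stricter filter and 0.26 with the brightest probe. Counts of kinesins at least 1.5-fold higher, 3, became 6 on the spike-in scale, 1 with normexp (offset 50) and 7 without a filter, and the count lower, 1, became 0 with the spike-in scale, normexp, the stricter filter and the brightest probe. At least 2-fold higher, 1, became 0 with normexp. Kif13b was -0.14 with the stricter filter, and Kif17 was 0.10 with that filter or the brightest probe. The cause was not tested. Median-of-detected, quantile and loess (span 0.3) scaling, the authors' values, unused outlier flags, RefSeq gene names, leaving Kif2a out of the spindle kinesins and adding Kif21a and Kif21b to the transport kinesins moved none of these counts and moved the medians by less than the spot SD of 0.06. No paired analysis was possible because each genotype has 1 array, and no array could be left out. Signals near background limit Kif6, Kif9, Kif27, Kif12 and Kif15. With normexp Kif12 was 0.37 and Kif15 0.22.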
